A study of Rhodotorula toruloides with 18 samples.

Results

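The comparison was whether the deletion of cbr1 changed the transcriptome of the oil-storing yeast Rhodotorula toruloides differently when the cells were on cellobiose than when they were on succinate. It was drawn from 12 of the 18 mRNA libraries of the study, 3 in each of 4 groups, chosen by strain and carbon source as the labels give them. Both strains are IFO0880 with a hygromycin resistance cassette at yku70 (yku70::HygR), which was named the wild type, and the deletion strain additionally had a nourseothricin cassette at cbr1 (yku70::HygR cbr1::NatR). The disruption of yku70 was therefore shared by every library. Cells from overnight growth in rich medium were washed and held for 8 h at 28 degrees C in constant light in yeast nitrogen base with 1% cellobiose or 1% succinate. The remaining 6 libraries came from the same strains held without a carbon source and did not enter the contrast. The number of independent clones per strain was not given in the sources used here.

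In yeasts and other fungi, a preferred sugar lowers the transcripts of genes that serve other carbon sources, a control called carbon catabolite repression. Cellobiose is a glucose disaccharide that β-glucosidases split into glucose, whereas succinate is an organic acid that enters the tricarboxylic acid cycle directly. The Ku70 protein acts in DNA end joining, and strains without it are used because cassettes integrate at the intended locus more often.

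Each library gave a TPM value (an abundance that accounts for transcript length and sums to the same total in every library) for 8484 genes. The genes carry identifiers that 0 rows of the reference gene table share, so they have no names, functions or coordinates here, and the cbr1 transcript could not be checked in the libraries. Tests covered 7938 genes, those whose mean over 18 libraries reached 1 TPM. For each gene the genotype effect is the difference of log2(TPM + 1), deletion minus wild type, within a medium. The interaction is the genotype effect on cellobiose minus that on succinate. A gene was called with a limma Benjamini-Hochberg adjusted p under 0.05 and an absolute log2 difference of at least 1.

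Some libraries stood apart from their groups. Across the tested genes, replicate 3 of the deletion strain on succinate had a Pearson r of 0.987 with wild type replicate 2 in that medium and of 0.921 to 0.954 with the replicates of its own group. Replicate 3 of the wild type on succinate had r of 0.913 and 0.937 with its own group and 0.949 with replicate 2 of the deletion strain on succinate. Replicate 1 of the deletion strain on succinate had its highest r, 0.960, with a wild type library on cellobiose. On cellobiose each of the 6 libraries was closest to a library of its own group. Wild type replicate 3 there still stood off, with r of 0.945 and 0.956 with its own group. Wild type replicates 1 and 2 on cellobiose had r of 0.995 with each other. The typical log2 SD among replicates was 0.547 for the wild type and 0.514 for the deletion strain on succinate, against 0.418 and 0.278 on cellobiose. The reading of the succinate side was thus less precise than that of the cellobiose side.

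The genotype effect differed between cellobiose and succinate for 623 of 7938 genes (7.85%). For 203 genes (2.56% of those tested) the effect was more positive on cellobiose, and for 420 (5.29%) it was more negative. The genes with a more positive effect were scarce in the wild type on cellobiose, with a median of 1.76 TPM, and higher in the deletion strain there, with 15.8 TPM, which was still below the 31.8 TPM of all tested genes. The genes with a more negative effect had a median of 83.8 TPM in the wild type on cellobiose and of 27.8 TPM in the deletion strain there. On succinate both groups of genes had genotype effects close to those of all genes, though the interaction that chose them holds that contrast too. The median interaction over all tested genes was -0.24. Leaving out replicate 3 of the wild type on succinate gave -0.09, and leaving out replicate 3 of the deletion strain on cellobiose gave -0.16. The lowest value with 1 library left out was -0.36, so the size of this shift rested in part on single libraries. Median-ratio scaling brought that median to 0.02 and called 673 more positive and 481 more negative genes. Quantile normalization brought it to -0.03 and called 352 and 407. Which direction held more genes thus depended on the scaling. Of the genes called in TPM, 197 of the 203 and 360 of the 420 were called in the same direction after median-ratio scaling, and 144 and 327 after quantile normalization.

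**Figure D1:**
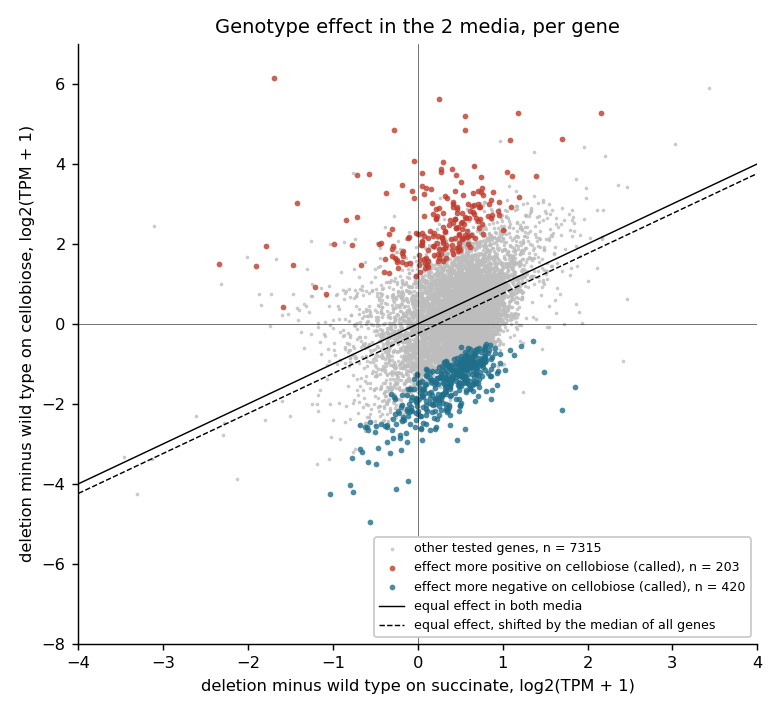
Genotype effect (deletion minus wild type, log2(TPM + 1)) on succinate, horizontal, against that on cellobiose, vertical, for the 7938 tested genes, with the 203 and 420 genes called for the interaction in colour. The called genes lie above and below the lines of equal effect and spread along the cellobiose axis, with most succinate values between -1 and 1.

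The components of the interaction were also compared by size. Among the 203 genes the median genotype effect was 2.37 on cellobiose and 0.30 on succinate, against 0.22 and 0.47 over all tested genes. Among the 420 genes it was -1.41 on cellobiose and 0.39 on succinate. These medians describe genes chosen by the same libraries and carry no test. Of the 623 genes, 513 (82.3%) had an absolute log2 effect of at least 1 on cellobiose and a smaller one on succinate. In 7 genes the effect was that large on succinate alone, and in 83, all among the 420, it was smaller than 1 in both media. Effects of at least 1 in both media had the same sign in 10 genes and opposite signs in another 10. After median-ratio scaling the class with a large effect on cellobiose alone held 585 of 673 and 423 of 481 genes. Large effects were more frequent on cellobiose over all 7938 tested genes as well. On cellobiose 1664 genes had an effect of at least 1 and 777 of at most -1, against 515 and 74 on succinate. The call of the interaction also favours a large effect in 1 medium alone, so these counts are a description.

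By limma's test within a medium, 2305 genes (29% of those tested) were called for the genotype effect on cellobiose and 3 (0.0378%) for that on succinate. On succinate the unadjusted p was under 0.05 for 2149 genes. The count of 3 became 1093 when replicate 3 of the deletion strain was left out, 726 without that library and its wild type counterpart numbered 3, and 5 without the latter alone. The 2305 became 302 when tested with limma's treat method against a log2 difference of 1. Of the 203 genes, 197 were called higher on cellobiose in the deletion strain, a direction called for 19.9% of all tested genes. Of the 420 genes, 332 were called lower, a direction called for 9.15%. Of the 623 genes, 0 were called on succinate. On cellobiose all deletion libraries lay above all wild type libraries for 201 of the 203 genes (38% of all tested genes), and below them for 409 of the 420 (21.8% of all). On succinate the deletion strain lay wholly above the wild type for 34 of the 203 and 68 of the 420, or 16.7% and 16.2%, against 30.1% of all tested genes. The interaction that chose the 203 and 420 genes holds both contrasts in these libraries. Their counts of calls and of non-overlap are thus favoured by the choice and carry no test.

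The genes with the most positive interaction by the naming rule were RTO4_11260 and RTO4_12928. On cellobiose, RTO4_11260 was at 2.70, 3.37 and 2.85 TPM in the wild type and at 553, 611 and 63.3 TPM in the deletion strain. On succinate it was at 108, 367 and 4539 TPM in the wild type and at 35.3, 541 and 274 TPM in the deletion strain. The strains were thus far apart on cellobiose and overlapped on succinate, where wild type replicate 3 was over all other libraries of that medium. The log2 genotype effect was 6.14 ± 1.04 (SE) on cellobiose and -1.69 ± 1.04 on succinate. The interaction was 7.83 ± 1.47 (SE; limma adjusted p = 0.00557), and without wild type replicate 3 on succinate it was 6.33 ± 1.25 (limma adjusted p = 0.0129). Without carbon the wild type held 1252 ± 507 TPM and the deletion strain 2704 ± 958 TPM (SD, n = 3).

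RTO4_12928 gave the same picture with less spread on succinate. On cellobiose it was at 0.472, 1.47 and 1.23 TPM in the wild type and at 118, 144 and 54.4 TPM in the deletion strain. On succinate the values were 24.2, 32.8 and 87.3 TPM in the wild type and 29.1, 101 and 39.7 TPM in the deletion strain. Every deletion library on cellobiose was above every wild type library there, and the strains overlapped on succinate. The genotype effect was 5.62 ± 0.51 (SE) on cellobiose and 0.25 ± 0.51 on succinate, an interaction of 5.37 ± 0.72 (limma adjusted p = 7.72e-04). The wild type libraries on cellobiose were also below all 6 libraries without carbon, which ran from 72.4 to 280 TPM.

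The genes with the most negative interaction by the same rule were RTO4_13771 and RTO4_10362. On cellobiose, RTO4_13771 was at 293, 240 and 81.9 TPM in the wild type and at 4.37, 5.53 and 4.62 TPM in the deletion strain. On succinate it was at 250, 277 and 66.5 TPM in the wild type and at 46.4, 113 and 268 TPM in the deletion strain. The strains did not overlap on cellobiose and covered almost the same range on succinate. The genotype effect was -4.96 ± 0.55 (SE) on cellobiose and -0.56 ± 0.55 on succinate, an interaction of -4.39 ± 0.78 (limma adjusted p = 0.00524). Without carbon the wild type held 17.7 ± 4.98 TPM and the deletion strain 13.7 ± 1.497 TPM (SD, n = 3), so the deletion strain on cellobiose was below its own level without carbon.

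RTO4_10362 was at 72.5, 50.8 and 56.1 TPM in the wild type on cellobiose and at 2.25, 3.01 and 2.19 TPM in the deletion strain. On succinate the wild type held 55.7, 50.5 and 16.1 TPM and the deletion strain 16.1, 28.1 and 57.3 TPM. Again the strains were apart on cellobiose and overlapped on succinate. The interaction was -3.86 ± 0.59 (SE; limma adjusted p = 0.00158), from genotype effects of -4.12 ± 0.41 on cellobiose and -0.26 ± 0.41 on succinate. Without carbon the wild type held 9.71, 8.53 and 6.25 TPM and the deletion strain 2.66, 2.95 and 3.15 TPM, which did not overlap either, though the difference of -1.21 ± 0.41 (SE) was not called (limma adjusted p = 0.503).

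**Figure D2:**
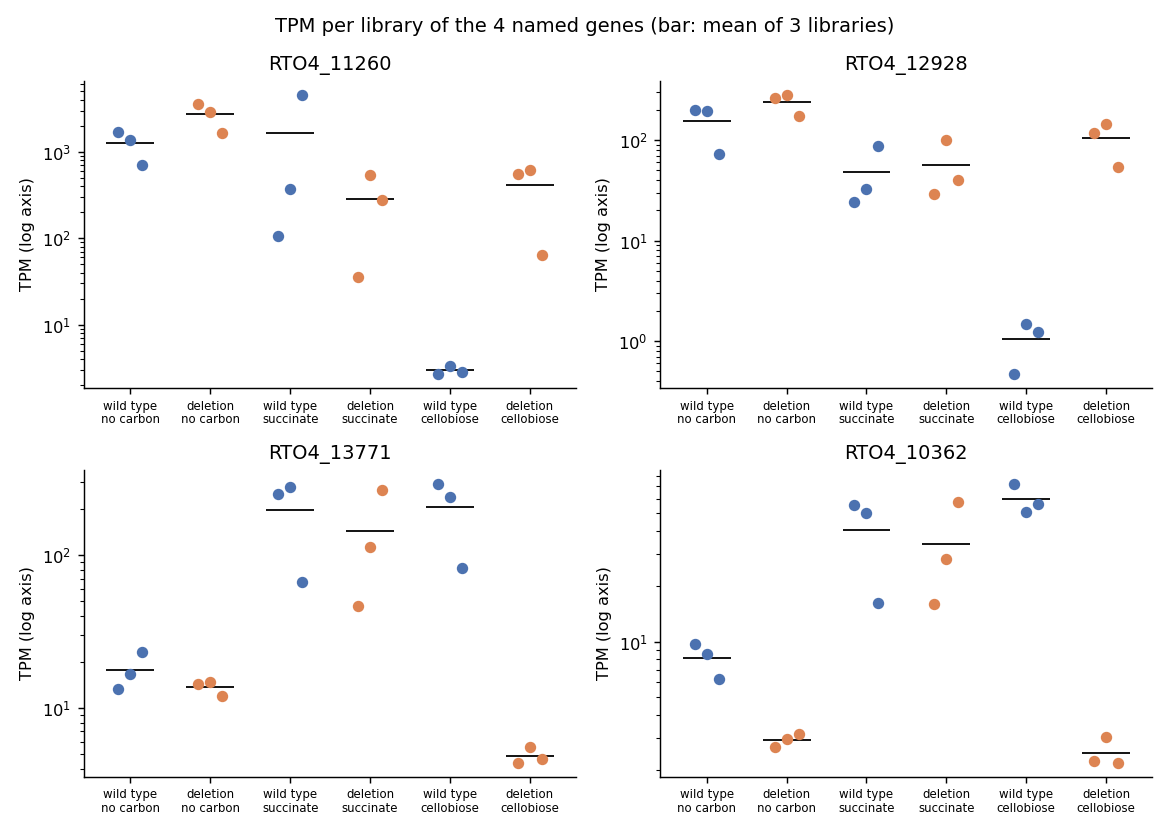
TPM on a log axis in each of the 18 libraries for RTO4_11260, RTO4_12928, RTO4_13771 and RTO4_10362, by strain and medium, with points for libraries and bars for the mean of 3. The strains are apart on cellobiose in all 4 genes and overlap on succinate.

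A stricter test asked for which genes the interaction itself was larger than a log2 difference of 1. With limma's treat method 4 genes passed, namely RTO4_12928, RTO4_15960, RTO4_9845 and RTO4_16746, of which the last 3 were singled out after their values were seen. RTO4_15960 was listed at 0, 0 and 0.144 TPM in the wild type on cellobiose and was at 49.4, 46.6 and 22.7 TPM in the deletion strain. On succinate it was between 0.618 and 0.886 TPM for the wild type and between 0.389 and 2.79 TPM in the deletion strain, near the bottom of the scale in both. Its interaction was 4.65 ± 0.62 (SE; limma treat adjusted p = 0.0178).

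RTO4_9845 was at 2.84, 1.31 and 1.42 TPM in the wild type and at 122, 109 and 92.2 TPM in the deletion strain on cellobiose. On succinate the deletion strain was at 24.2, 34.7 and 31.7 TPM and the wild type at 7.28, 7.69 and 34.5 TPM, and without carbon the deletion strain was at 259 ± 50.2 TPM against 78.6 ± 25.4 TPM (SD, n = 3). The mean of the deletion strain was thus the higher one in all 3 media. As log2 differences the gaps were 5.28 on cellobiose, 1.18 on succinate and 1.73 without carbon. The interaction was 4.11 ± 0.59 (SE; limma treat adjusted p = 0.0414). RTO4_16746 was at 330, 295 and 266 TPM in the wild type on cellobiose and at 37.2, 47.3 and 32.1 TPM in the deletion strain. On succinate the wild type held 121 ± 54.4 TPM and the deletion strain 154 ± 12.4 TPM (SD, n = 3), which overlapped. Its interaction was -3.38 ± 0.46 (SE; limma treat adjusted p = 0.0414).

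Of the 10 genes with effects of at least 1 in size and of opposite sign in the media, 6 were among the 203, with the deletion strain higher on cellobiose and lower on succinate, RTO4_11260 among them. The place of RTO4_11260 there rested on single succinate libraries, wild type replicate 3 at 4539 TPM and deletion replicate 1 at 35.3 TPM. Its interaction was 6.33 without the former and 6.69 without the latter. Both values were close to its effect of 6.14 on cellobiose alone. The other 4 of the 10 were among the 420, with the reverse order, and were RTO4_9135, RTO4_9919, RTO4_13632 and RTO4_12926, singled out after their values were seen. RTO4_9135 was at 2061, 2110 and 1601 TPM in the wild type on cellobiose and at 415, 704 and 268 TPM in the deletion strain. On succinate it was at 5.56, 7.94 and 3.94 TPM in the wild type and at 90.2, 27.4 and 2.84 TPM in the deletion strain. The strains did not overlap on cellobiose, and on succinate 2 deletion libraries were over the wild type and 1 was under it. Its interaction was -3.86 ± 0.97 (SE; limma adjusted p = 0.0209). The call was lost without wild type replicate 3 on succinate and without replicate 1 or 3 of the deletion strain on cellobiose.

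RTO4_9919 was at 147, 126 and 80.3 TPM in the wild type and at 47.7, 25.8 and 44.0 TPM in the deletion strain on cellobiose. On succinate it was at 33.3, 34.8 and 7.79 TPM in the wild type and at 165, 60.5 and 49.1 TPM in the deletion strain. The strains were apart in both media, in opposite order. The effects were -1.57 ± 0.52 (SE; limma adjusted p = 0.0243) on cellobiose and 1.85 ± 0.52 (limma adjusted p = 0.151, not called) on succinate, and the interaction was -3.42 ± 0.74 (limma adjusted p = 0.0112). RTO4_12926 had effects of -1.16 and 1.03 and an interaction of -2.18 ± 0.47 (SE; limma adjusted p = 0.0112). RTO4_13632 had effects of -1.21 and 1.49 and an interaction of -2.71 ± 0.75 (SE; limma adjusted p = 0.0336), though its effect on cellobiose was not called (limma adjusted p = 0.0782). On cellobiose it was at 7.06, 7.92 and 23.1 TPM in the wild type and at 3.85, 8.21 and 2.11 TPM in the deletion strain, which overlapped. Its interaction call was lost in 5 of the 12 fits with 1 library of the 4 groups left out.

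The same interaction can be read as a difference between strains in how cellobiose and succinate compare. Over the 203 genes the median log2 difference, cellobiose minus succinate, was -0.69 in the wild type and 1.30 in the deletion strain. In 182 of them (89.7%) the value was lower on cellobiose in the wild type and higher on cellobiose in the deletion strain, an order seen in 13.6% of all tested genes. In 33 both differences were at least 1 in size, and in 117 only that of the deletion strain was. Over the 420 genes the medians were 0.78 in the wild type and -1.05 in the deletion strain. In 390 (92.9%) the wild type was higher and the deletion strain lower on cellobiose, against 28.4% of all tested genes. Of the 420, the difference was at least 1 in size in the deletion strain alone for 201, in the wild type alone for 77 and in neither strain for 117. The medians over all tested genes were 0.43 and 0.17. As the interaction chose these genes, their order between media is a description.

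The summed abundance of the called genes is a description, since the same libraries chose these genes and favour its order on cellobiose. The 203 genes took 0.677%, 0.729% and 0.578% of the TPM of the wild type libraries on cellobiose and 5.85%, 5.60% and 4.67% of those of the deletion strain. On succinate they took 1.09%, 1.46% and 4.97% in the wild type and 2.00%, 2.56% and 1.52% in the deletion strain. The strains were wide apart on cellobiose, while on succinate wild type replicate 3 was over all other libraries of that medium. The 420 genes took 6.39%, 6.22% and 5.71% in the wild type and 1.91%, 2.15% and 2.11% in the deletion strain on cellobiose. On succinate they took 4.48%, 4.67% and 2.39% in the wild type and 4.27%, 4.50% and 4.67% in the deletion strain, where wild type replicate 3 was again the library apart.

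**Figure D3:**
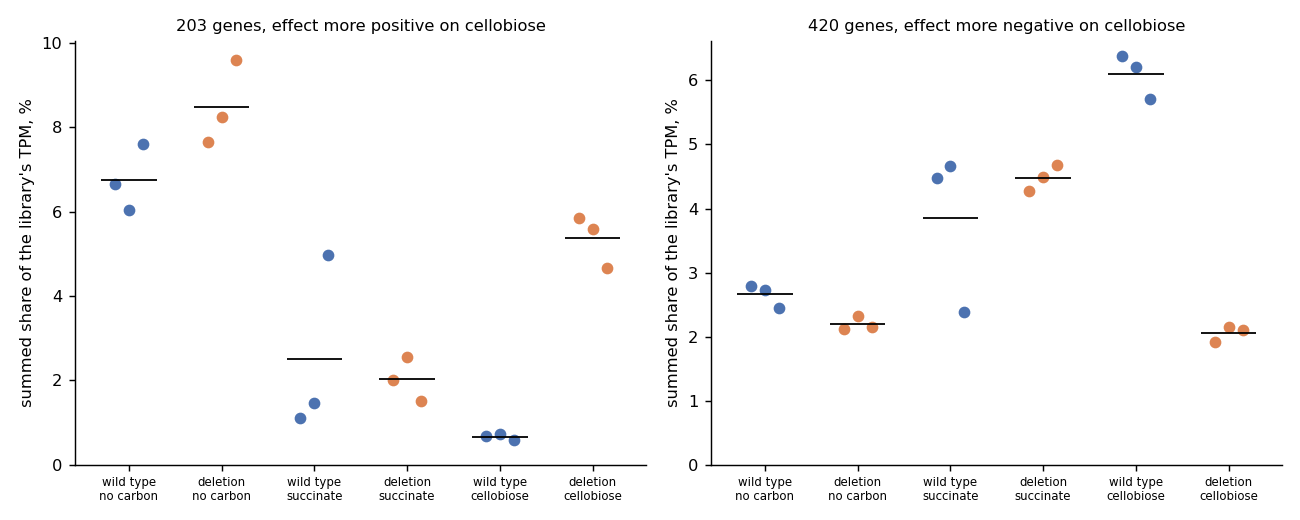
Summed share of each library's TPM, in percent, taken by the 203 genes of more positive and the 420 genes of more negative effect on cellobiose, with points for libraries and bars for the mean of 3. On cellobiose the shares of the deletion libraries lie near those of the libraries without carbon, and wild type replicate 3 on succinate lies apart from its group in both panels.

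Transcripts of the 203 genes were low in the wild type on cellobiose against other genes as well as between strains. Their median percentile among all tested genes ran from 8.61 to 10.01 in the wild type on cellobiose and from 25.7 to 31.0 for the deletion strain there. It ran from 11.7 to 19.6 in the wild type and from 12.4 to 13.9 in the deletion strain on succinate. In 42 of the 203 genes (20.7%) all 3 wild type libraries on cellobiose were below 1 TPM, against 3.96% of all tested genes, and in 0 of the 203 were all 3 deletion libraries. The choice of genes by these libraries favours both counts. The 420 genes had a median percentile of 76.2 to 81.0 in the wild type and 41.1 to 48.4 for the deletion strain on that sugar, and 71.3 to 77.7 over the 6 libraries on succinate. The median of the mean TPM over 18 libraries was 11.8 for the 203, 54.2 for the 420 and 32.8 for all tested genes. A difference of log2(TPM + 1) understates the change of low genes, which were more frequent among the 203.

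The libraries without carbon entered the interaction only through the estimate of the spread and the filter on the mean of 18 libraries. They gave a reading of the called genes in other samples. The 203 genes took 6.76% ± 0.786 of the TPM in the wild type and 8.49% ± 0.993 in the deletion strain without carbon (SD, n = 3), and the 420 genes 2.66% ± 0.184 and 2.19% ± 0.111. The deletion strain on cellobiose, at 5.37% ± 0.622 and 2.05% ± 0.126 (SD, n = 3), was nearer to these values than the wild type on cellobiose, at 0.661% ± 0.0766 and 6.10% ± 0.354. The 6 group means were highest in a group without carbon for 155 of the 203 genes (76.4%), against 49.2% of all tested genes. The wild type on cellobiose was highest for 0 of the 203 and for 333 of the 420 (79.3%), against 22.8% of all. The choice of genes favours all of these shares, for the 203 by leaving fewer groups that can be highest. Low genes could also pass the filter through their values without carbon.

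The genotype effect without carbon had a median of 0.54 over the 203 genes and -0.27 over the 420 genes, against 0.27 over all tested genes. It was above the median of all genes for 140 of the 203 (69.0%) and below it for 400 of the 420 (95.2%). The distance from the median of all genes was 0.27 for the 203 and -0.54 for the 420. Median-ratio scaling gave 0.29 and -0.54, and quantile normalization gave 0.32 and -0.55. Across the settings that leave out 1 library the distances ran from 0.21 to 0.31 and from -0.63 to -0.40. Both were far smaller than the median effects on cellobiose, which are not distances and which the choice of genes enlarges. The sizes are thus not on equal terms. All deletion libraries without carbon lay below all wild type libraries for 120 of the 420 genes (28.6%), against 5% of all tested genes, and above them for 17 of the 203 (8.37%), against 3.14%.

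Few genes were called without carbon when the 18 libraries were fitted together. There were 6 (0.0756%), of which 1 was among the 203 and 1 among the 420, both with the deletion strain lower, and the unadjusted p was under 0.05 for 754. In this medium deviations of same-numbered libraries of the strains went together, with r of 0.606, 0.236 and 0.686. Wild type replicate 2 had a higher r, 0.354, with deletion replicate 1, so a pairing by number is uncertain. A fit of the 6 libraries that matched them by number, chosen after the data were seen, called 283 genes (3.57%), and without the matching it called 2. With the matching, 25 of the 203 genes were called higher (12.3%, against 1.95% of all tested genes) and 4 lower. Of the 420 genes, 21 were called lower (5%, against 1.61%) and 0 higher.

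**Figure D4:**
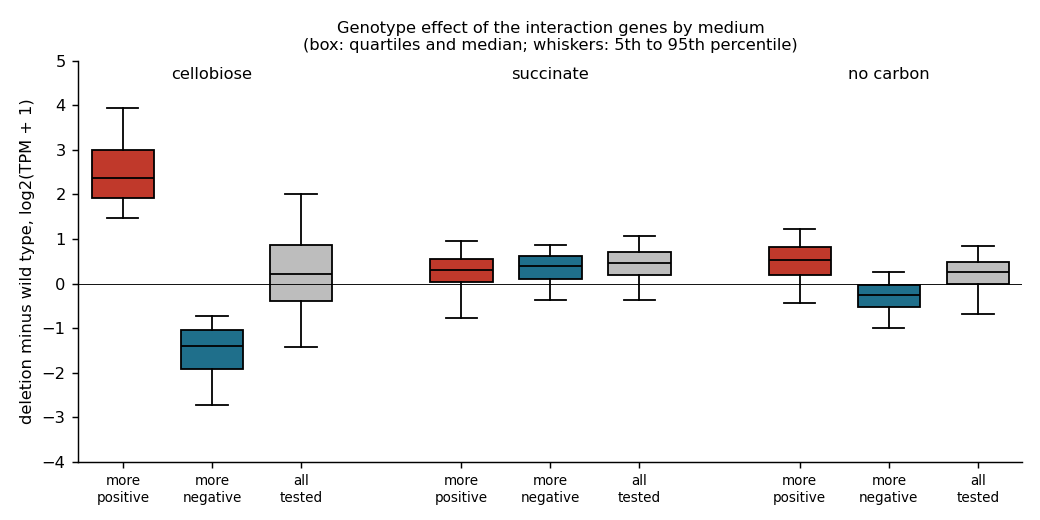
Genotype effect (deletion minus wild type, log2(TPM + 1)) on cellobiose, on succinate and without carbon for the 203 genes whose effect was more positive on cellobiose, the 420 with a more negative one and all 7938 tested genes. Boxes give quartiles and median and whiskers the 5th to 95th percentile. The called genes part on cellobiose by construction and lie near all genes on succinate, where the choice by the interaction also acts on their effects. Without carbon they part in the same order as on cellobiose, with medians of 0.54 and -0.27.

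Genes can also be chosen on cellobiose alone and read on succinate, since these media share no library. The 1579 genes called higher in the deletion strain on cellobiose had a median genotype effect of 1.52 there and 0.67 on succinate, against 0.47 on succinate over all tested genes. On succinate 1124 of them (71.2%) were above the median of all genes. The 726 genes called lower on cellobiose had a median of -1.48 there and 0.03 on succinate, and 117 of them (16.1%) were above the median of all genes. The genotype effect on succinate thus lay in the direction of that on cellobiose, relative to all genes, with smaller medians. The choice on cellobiose enlarges the medians there, so the sizes in the 2 media are not on equal terms. The interaction was called for 197 of the 1579 genes (12.5%) and for 332 of the 726 (45.7%). Over all tested genes it was called more positive for 2.56% and more negative for 5.29%. The interaction holds the contrast that chose these genes, which favours both shares, and the balance of its directions depended on the scaling. For the other genes called on cellobiose the interaction was not called, which does not show an equal effect in both media. The median SE of the interaction was 0.47 over all tested genes, and the smallest interaction called was 1.09 in size.

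The number of genes called depended on single libraries. Without replicates 1, 2 and 3 of the deletion strain on cellobiose in turn, the 623 became 166, 348 and 374. Leaving out replicates 1 and 2 of the wild type on cellobiose gave 328 and 293, and dropping wild type replicate 3 on succinate gave 276. Dropping wild type replicate 3 in no carbon, which enters only through the spread, gave 1174. When replicate 3 of the deletion strain on succinate was dropped there were 568, of which 123 were more positive and 445 more negative, and 446 of the 623 were among them in the same direction. Leaving out replicate 3 of both strains on succinate, an alternative chosen after the data were seen, gave 337 genes, 82 and 255, of which 274 were among the 623. A core of 164 genes (26.3%), 50 more positive and 114 more negative, was called in the same direction in all 12 fits that left out 1 library of the 4 groups. In this core the median genotype effect was 3.04 on cellobiose and 0.27 on succinate for the 50 genes, and -1.86 and 0.33 for the 114. The interaction in these same libraries chose the core, so its medians are a description and carry no test.

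**Figure D5:**
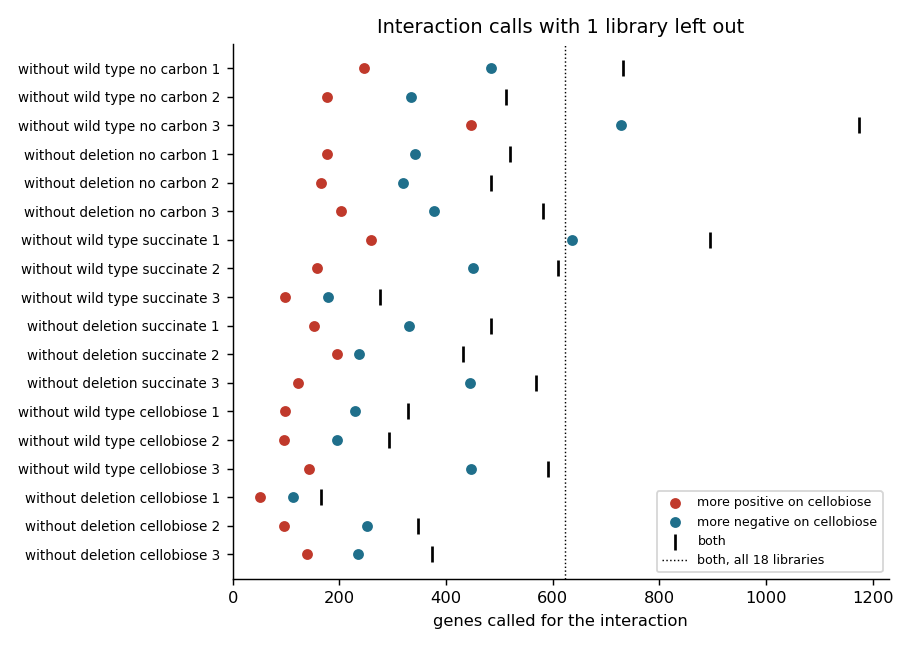
Number of genes called for the interaction when each of the 18 libraries is left out, for both directions and in total, with the dotted line at the 623 called with all libraries. The totals run from 166 without replicate 1 of the deletion strain on cellobiose to 1174 without wild type replicate 3 in no carbon.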

How the data were processed

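Per the labels' protocols, poly-A RNA of 18 cultures was made into Illumina libraries. The authors deposited TPM values, 1 column for each library, made from transcript lengths and a fixed total of 1e+06. Salmon 1.10.0 is named in the submitters' processing notes. Its index, genome build and annotation were not given in the sources used here. The values hold no read numbers, so depth is unknown. All 18 columns were matched by library name, and 0 of 8484 identifiers were found among the 8171 entries for strain NP11 in the reference table.

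Values were transformed to log2(TPM + 1), and 7938 genes, averaging 1 TPM or more, were fitted with limma 3.58.1 in R 4.3.3. The model had 1 mean for each of 6 groups, a shared spread and empirical Bayes moderation with a trend. P-values are two-sided and adjusted over all tested genes within a contrast. The labels describe biological triplicates without saying what was separate, so p-values measure the spread between these libraries. With 3 against 3, 0.1 is the smallest p of an exact permutation test. The fit was checked on simulated data with known interactions, where each gene had the same spread in all groups and no library stood apart. The check therefore does not cover the unequal spread and the outlying libraries of these data.

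Named genes were the 2 with the most positive and the 2 with the most negative interaction among genes called in all 12 fits without 1 library of the 4 groups, with a mean of at least 10 TPM in 1 of these groups. Members and rules were chosen with earlier results of these data known. The correlations of the deviations of same-numbered libraries were 0.606, 0.236 and 0.686 without carbon, so the numbers were taken to pair those libraries. On succinate they were 0.0839, -0.345 and -0.321 and on cellobiose -0.0573, -0.0641 and -0.0566, so there no pairing by number was assumed. Libraries of unlike number also went together. The value was 0.354 for wild type 2 with deletion 1 without carbon and 0.639 for wild type 3 with deletion 2 on succinate. Such correlations therefore do not by themselves show a pairing by number. Alternatives were pseudocounts of 0.1 and 5 TPM, other filters, scalings, weights, tests, blocks and leaving out libraries.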

Additional observations from a re-analysis of the deposited data

Results flagged for a closer look

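The genotype effect differed between cellobiose and succinate, by limma's interaction term, for 623 genes. Among the genes named, the log2 interaction was 7.83 for RTO4_11260, 5.37 for RTO4_12928, 4.65 for RTO4_15960 and 4.11 for RTO4_9845. It was -4.39 for RTO4_13771, -3.86 for RTO4_10362, -3.38 for RTO4_16746, -3.42 for RTO4_9919, -2.18 for RTO4_12926, -2.71 for RTO4_13632 and -3.86 for RTO4_9135. With 3 libraries in each group, no single library was tested for being far from its group.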

How the results depend on the processing

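For the interaction, the count of 623 genes became 1154 after median-ratio scaling, 4 with treat and 337 without replicate 3 of both strains on succinate, and ran from 166 to 1174 with 1 library left out. Limma's array weights gave 1862, but their estimation stopped before convergence. A fit of the 12 libraries alone called 784 genes, 374 more positive and 410 more negative, 551 of them shared with the 623. For the genotype effect on cellobiose, treat gave 302 in place of 2305, and the other 31 settings stayed within 1.5 times. For that on succinate, the 3 genes became 5 with a pseudocount of 5 TPM, 6 with a filter of 10 TPM, 6 after median-ratio scaling, 1118 with array weights, 1 with treat and 726 without replicate 3 of both strains, and ran from 2 to 1093 with 1 library left out. With the replicate number as a block over 18 libraries, 1223 genes were called for the interaction and 453 for succinate. A block within each medium gave 1213 and 428. Whether libraries of the same number were paired on cellobiose and succinate is not known. The blocks changed the call of no gene named by the rule. RTO4_12928 was called in all 32 settings, and RTO4_11260, RTO4_13771 and RTO4_10362 in 31 each, with treat as the exception (limma adjusted p of 0.0833, 0.122 and 0.0675). The naming rule itself required a call in 12 of these settings, those without 1 library on cellobiose or succinate. The outcome of those settings was thus fixed by the choice. The cause of these shifts was not tested. As depth is unknown, no limit for genes listed at 0 can be given.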
